A study of Mus musculus with 9 samples.

Results

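The genes described here belong to 7 families of mouse amino acid transporters, Slc1, Slc3, Slc6, Slc7, Slc36, Slc38 and Slc43. They were chosen by symbol alone, as every gene of the count tables whose name is one of these family names followed by a member number. This took 66 of 47729 listed genes. Of the 66, 4 are genes on the strand opposite to a transporter (Slc6a19os, Slc7a6os, Slc36a1os and Slc36a3os) and carry only its name, which leaves 62 transporter genes. Messenger RNA was sequenced from myoblasts, the proliferating precursor cells of muscle fibres, grown from skeletal muscle of FVB/N, an inbred strain of mouse. They come from 3 populations with 3 libraries each: the parental cells (PAR), the cells labelled FRCs of cycle 1 (FRC1) and the cells labelled SRCs of cycle 3 (SRC3). FRC1 and SRC3 are reserve cell populations, the undifferentiated cells that remain when a myoblast culture is induced to differentiate, and per the labels they had been returned to proliferation conditions and passaged before harvest. Every FRC library is of cycle 1 and every SRC library of cycle 3, so the FRC or SRC label and the cycle number cannot be told apart. The labels give no genetic change and no added agent for any population.

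Nothing in the labels says that replicates came from separate cultures, so p-values here measure the spread between these 3 samples per group and no more, and that spread may be technical. Whether each population is a clone or a mixture of cells is also not stated there. The libraries are bulk RNA, in which fewer cells of a type and less RNA per cell cannot be told apart.

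Amino acids cross membranes largely through carriers, and a cell combines several kinds. System A carriers of the Slc38 family and the glycine, proline and taurine carriers of the Slc6 family use the sodium gradient to concentrate their substrates. Exchangers of the Slc7 family, anchored by a heavy chain of the Slc3 family, then trade amino acids already inside the cell for others outside, such as leucine or cystine. In muscle precursors these routes feed protein synthesis, glutathione and creatine, and leucine and arginine inside the cell switch on the growth kinase complex mTORC1.

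The 9 libraries held 13012996 to 14336279 gene counts, at which 3 reads in a library correspond to 0.209 to 0.231 CPM (gene counts scaled to the size of the library, with the TMM correction for differences in library makeup). CPM are given as mean ± SD with n = 3 for each group, and log2 fold changes with the standard error (SE) of the fit. Adjusted p come from edgeR's quasi-likelihood test of all 9 libraries, with Benjamini-Hochberg adjustment over the 12540 genes tested, and a gene was called at an adjusted p under 0.05. A level compared between genes is given as CPM per kilobase of exons. Myoblast markers summed to 2360 to 2410 CPM in PAR, 2200 to 2300 in FRC1 and 1720 to 1860 in SRC3, and Myf5 had 0 reads in PAR and FRC1. Markers of differentiated muscle summed to 4.69 to 6.16 CPM in PAR, 81.3 to 100 in FRC1 and 8.36 to 22.4 in SRC3. Of 6 tested, 6 were called higher in FRC1 than in PAR, beside 13.6% of all genes. In SRC3 against PAR 4 were called higher and 0 lower, beside 17.8 and 20.2% of all genes. Pericyte markers summed to 0.536 to 1.14, 5.08 to 10 and 46.9 to 63 CPM in the 3 populations, in FRC1 and SRC3 mostly Cspg4. The other genes of that list, Rgs5, Pdgfrb and Kcnj8, had 26, 3 and 1 reads in all 9 libraries together and were not tested. Fibroblast markers summed to 8.61 to 9.03 CPM in PAR, 6.63 to 7.21 in FRC1 and 10.9 to 12.7 in SRC3, with Lum at 0 reads, and glial markers to 1.07 to 1.63, 1.67 to 2.35 and 2.71 to 3.65, with Sox10 and S100b at 0. Both sums were separate between the populations. Leukocyte markers lay between 2.27 and 4.4 CPM in overlapping ranges, with Adgre1 at 0. Endothelial markers reached at most 0.56 CPM, with Kdr at 0. The part of these other signals in the results that follow was not tested.

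Of the 66 genes, 30 passed the filter on low counts and were tested, 29 of them transporters. Of these 30, 25 reached the filter's cutoff of 0.734 CPM in libraries of all 3 populations, 4 in 2 populations (Slc1a6, Slc7a8, Slc43a3 and Slc6a13), and Slc7a4 in SRC3 alone. The other 36 genes were not tested, and 24 of these had 0 reads in all 9 libraries, where 3 reads in a library is the floor. The mean levels of the tested members had a median of 38.8 CPM, beside 32.2 CPM over all tested genes.

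Between FRC1 and PAR, 14 of 30 tested members differed (46.7%), 4 higher and 10 lower in FRC1. Over all tested genes 28.3% differed, 13.6% higher and 14.7% lower. Between SRC3 and PAR, 16 members differed (53.3%), 11 higher and 5 lower in SRC3, beside 37.9% of all genes, 17.8% higher and 20.2% lower. Between SRC3 and FRC1, 21 members differed (70%), 15 higher and 6 lower in SRC3, beside 33.5% of all genes, 15.5% higher and 18% lower. The median log2 fold change of the tested members was -0.12, 0.13 and 0.21 in the 3 comparisons, against 0.0034, 0.0057 and -3e-04 over all tested genes. Changes of at least 2-fold were found in 5, 5 and 7 members (16.7, 16.7 and 23.3%), beside 2.63, 6.71 and 6.53% of all genes. In every comparison these included Slc1a6, Slc7a8 and Slc43a3, low members that reached the filter's cutoff in no SRC3 library. Their passing rested on the populations where they were higher, so these shares depend in part on the filter. The libraries of the groups did not overlap for 18, 17 and 24 members (60, 56.7 and 80%), beside 44.2, 49.1 and 42.8% of all genes. Each pair of comparisons shares a group of libraries, so the 3 counts are not independent of each other.

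**Figure D1:**
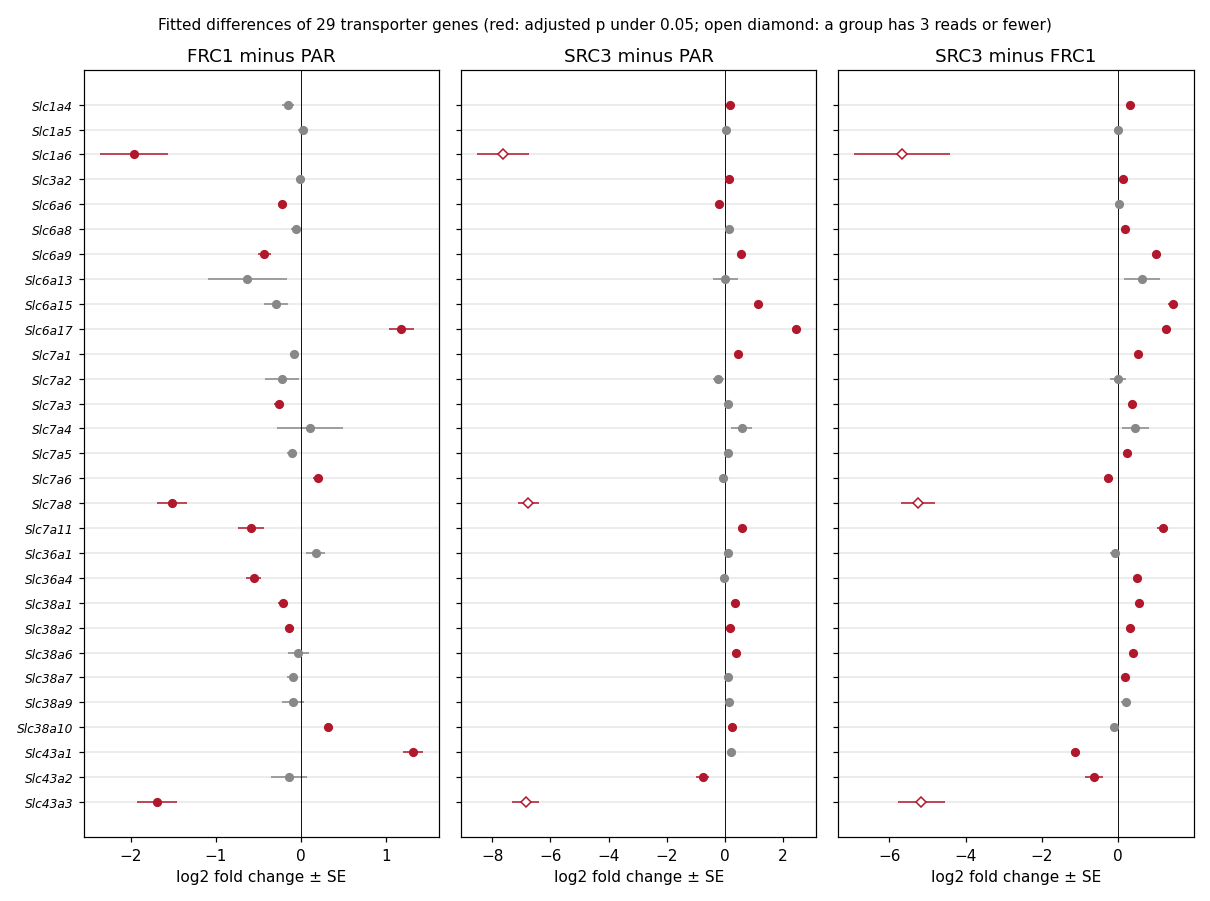
Log2 fold changes with their SE (horizontal axis) of the 29 tested transporter genes, 1 panel per comparison, with genes called at an adjusted p under 0.05 in red and genes with 3 reads or fewer in a group as open diamonds. More genes were called lower than higher in FRC1 minus PAR (10 and 4) and more higher than lower in SRC3 minus FRC1 (15 and 6), and the diamonds far to the left are Slc1a6, Slc7a8 and Slc43a3.

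Per length of exon, a few genes carried most of the transporter messenger RNA in every population. Slc7a5 averaged 163.1 CPM per kilobase over the 9 libraries, Slc3a2 87.9, Slc1a5 66.1, Slc38a2 48.2 and Slc6a6 37.5. The top 4 of these held 60.5 ± 1.1% of the summed per-length level of all transporters in PAR, 60.8 ± 0.84% in FRC1 and 60.3 ± 1.6% in SRC3, ranges that overlapped. Summed over the 62 transporters, the per-length level was 594.8 ± 10.1 CPM per kilobase in PAR, 567.9 ± 6.04 in FRC1 and 647.3 ± 21.7 in SRC3. The PAR libraries ranged from 585.3 to 605.4, the FRC1 libraries from 560.9 to 571.9 and the SRC3 libraries from 622.8 to 664.3, so the 3 populations did not overlap. At the other end of the order, Slc6a13, a GABA and taurine carrier, averaged 0.205 CPM per kilobase and Slc7a4 0.16.

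**Figure D2:**
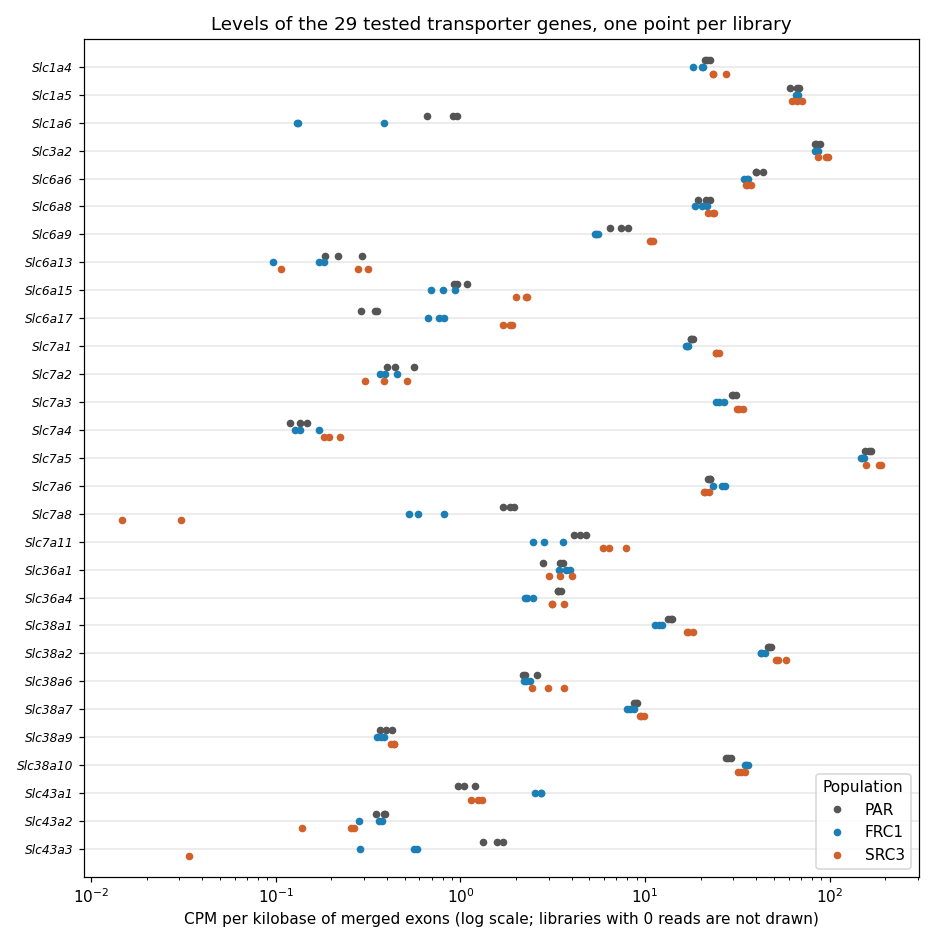
Per-length level (CPM per kilobase of merged exons, log axis) of the 29 tested transporter genes, 1 point per library, coloured by population, with genes ordered by family. Slc7a5 has the highest level, at a mean of 163.1. The points of the populations separate widely for Slc7a8, Slc43a3, Slc1a6, Slc6a17 and Slc43a1.

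The promoters of Slc7a11, Slc1a4, Slc43a1 and Slc7a8 are shown first, for the members whose differences are described in most detail or whose start holds a searched motif. The windows are from RefSeq on GRCm38.p6, written 5′ to 3′ on the strand of the gene, and end at the base before the annotated start, except for Slc1a4, whose window runs from 100 bases before to 10 bases after it. Capitals mark matches on either strand to TGATGNAA, the core of the element that the stress factor ATF4 and its C/EBP partners can bind, or to CACGTG, the E-box of lysosomal and growth genes. The window of Slc7a11 is chr3:50443614-50443863 (minus strand), that of Slc1a4 chr11:20332704-20332813 (minus), that of Slc43a1 chr2:84840073-84840322 (plus) and that of Slc7a8 chr14:54781887-54782136 (minus).
Slc7a11: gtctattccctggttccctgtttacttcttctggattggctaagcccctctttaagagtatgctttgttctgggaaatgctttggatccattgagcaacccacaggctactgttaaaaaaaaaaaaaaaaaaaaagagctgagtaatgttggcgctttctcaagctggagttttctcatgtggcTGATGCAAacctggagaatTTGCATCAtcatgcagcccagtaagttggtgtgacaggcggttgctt
Slc1a4: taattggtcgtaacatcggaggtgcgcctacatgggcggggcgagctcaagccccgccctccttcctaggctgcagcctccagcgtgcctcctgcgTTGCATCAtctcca
Slc43a1: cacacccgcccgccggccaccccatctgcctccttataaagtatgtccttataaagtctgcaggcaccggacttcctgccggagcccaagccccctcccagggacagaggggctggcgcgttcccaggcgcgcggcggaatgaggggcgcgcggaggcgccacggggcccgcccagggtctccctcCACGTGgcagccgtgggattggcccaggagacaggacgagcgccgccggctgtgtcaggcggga
Slc7a8: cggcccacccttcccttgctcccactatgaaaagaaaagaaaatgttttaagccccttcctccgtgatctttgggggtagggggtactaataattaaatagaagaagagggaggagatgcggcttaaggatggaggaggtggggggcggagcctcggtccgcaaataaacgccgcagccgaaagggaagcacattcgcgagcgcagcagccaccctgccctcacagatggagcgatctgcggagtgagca
Slc7a11 holds TGATGNAA at 66 bases before the start and, on the other strand, at 47 bases before it, and Slc1a4 holds it across the start itself. Slc43a1 holds CACGTG at 64 bases before the start of its RefSeq window, and the window of Slc7a8 holds neither motif. That RefSeq start of Slc43a1 is a downstream one. The gene interval given below for Slc43a1 begins at 84838850, so the window shown lies inside it and not upstream of the gene. RefSeq gave 28 windows for 20 of the 30 tested members. With windows of 300 bases, 250 before and 50 after the start, TGATGNAA was in 2 of these 28 (7.14%) and in 3.97% of all 32851 promoter windows. CACGTG was in 4 of 28 (14.3%; Slc43a1, Slc38a7, Slc1a6 and Slc36a1) and in 7.15% of all. Matches to the different motifs did not overlap, and a match is a description of the letters, not a site of binding.

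Slc3a2 encodes the heavy chain, known as 4F2hc or CD98, that carries several Slc7 light chains to the cell surface (ENSMUSG00000010095, chromosome 19, 8706882 to 8723369, GRCm38). Its level was 312.6, 294 and 296.9 CPM in the PAR libraries, 292.8, 306 and 300.3 in FRC1, with 335, 346.8 and 306.6 in SRC3. PAR and FRC1 overlapped, and the SRC3 libraries lay above FRC1 but not above all of PAR. SRC3 was called 1.09-fold higher than PAR (log2 0.13, SE 0.05; edgeR adjusted p = 0.046) and 1.1-fold higher than FRC1 (log2 0.14, SE 0.05; edgeR adjusted p = 0.04), while FRC1 and PAR were not called (log2 -0.01; edgeR adjusted p = 0.93). Neither call is firm. The call against PAR was lost without PAR replicate 2 (edgeR adjusted p = 0.15) or 3 (0.11), without SRC3 replicate 1 (0.11) or 2 (0.14), without FRC1 replicate 3 (0.054), with DESeq2 (0.053), with voom (0.052), with no filter (0.057) and in a fit of the 2 groups alone (0.052). The call against FRC1 was lost without SRC3 replicate 1 (edgeR adjusted p = 0.096) or 2 (0.11), without FRC1 replicate 1 (0.11) or 3 (0.077), and in the fit of the 2 groups alone (0.062). The other heavy chain gene, Slc3a1, which pairs with the cystine carrier of kidney and gut, had 26 reads in all 9 libraries together.

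The light chains that join Slc3a2 did not move alike. Of 4 tested light chain genes, 1 was higher and 2 lower in FRC1 than in PAR, 1 higher and 1 lower in SRC3 than in PAR, and 2 higher and 2 lower in SRC3 than in FRC1. These are 75, 50 and 100% called, beside 28.3, 37.9 and 33.5% of all genes.

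Slc7a5, the leucine and large neutral amino acid exchanger LAT1 (ENSMUSG00000040010, chromosome 8, 121881150 to 121907694), had the highest per-length level of the whole set. It was at 621, 608.5 and 575.6 CPM in PAR, 570.9, 548.8 and 557.7 in FRC1, with 682.2, 699.4 and 580.4 in SRC3. FRC1 lay below the other populations without overlap, and SRC3 replicate 3 stood well below the other SRC3 libraries, within the PAR range. SRC3 exceeded FRC1 1.17-fold (log2 0.23, SE 0.06; edgeR adjusted p = 0.0049). The difference from PAR was not called for FRC1 (log2 -0.11; edgeR adjusted p = 0.19, and 0.04 in a fit of those 2 groups alone) or for SRC3 (log2 0.12; edgeR adjusted p = 0.11). Without SRC3 replicate 3 the SRC3 to PAR difference was called (log2 0.20; edgeR adjusted p = 0.0011). The ratio of Slc7a5 to Slc3a2, per length, was 1.9 ± 0.063 in PAR, 1.78 ± 0.075 in FRC1 and 1.89 ± 0.074 in SRC3, and the populations overlapped.

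Slc7a11, the cystine and glutamate exchanger xCT that supplies cysteine for glutathione (ENSMUSG00000027737, chromosome 3, 49892526 to 50443614), is the gene whose promoter holds the pair of TGATGNAA matches. Its level was 66.79, 57.58 and 61.83 CPM in PAR, 34.48, 49.97 and 39.34 in FRC1, with 89.25, 81.92 and 109.5 in SRC3. All 3 populations were separate, with FRC1 lowest and SRC3 highest. SRC3 rose 2.26-fold over FRC1 (log2 1.18, SE 0.15; edgeR adjusted p = 3e-04) and 1.51-fold over PAR (log2 0.59, SE 0.14; edgeR adjusted p = 0.011). FRC1 was 1.5-fold lower than PAR (log2 -0.59, SE 0.15; edgeR adjusted p = 0.021), a call lost without PAR replicate 1 (edgeR adjusted p = 0.066), PAR replicate 3 (0.06) or FRC1 replicate 3 (0.067). Among the light chains Slc7a11 made up 2.34 ± 0.16% of the per-length level in PAR, 1.65 ± 0.32% in FRC1 and 3.33 ± 0.81% in SRC3.

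Slc7a8, the neutral amino acid exchanger LAT2 (ENSMUSG00000022180, chromosome 14, 54722209 to 54781946), fell to 3 reads in all SRC3 libraries together. It was at 9.24, 8.5 and 9.74 CPM in PAR, 4.09, 2.94 and 2.64 in FRC1, with 0.0733, 0.154 and 0 in SRC3. The populations were fully separate, and every SRC3 library was under the floor of 3 reads. FRC1 was 2.85-fold lower than PAR (log2 -1.51, SE 0.18; edgeR adjusted p = 4.3e-06). PAR held 380 reads, FRC1 133 and SRC3 3, a PAR to SRC3 ratio of 122 with a 95% counting interval of 41.3 to 592, and an FRC1 to SRC3 ratio of 42.5 (14.2 to 208). These intervals are exact binomial ones and cover counting error only. Because they rest on 3 reads, the ratios moved to 246 and 85.8 without SRC3 replicate 2, and to 81.4 and 28.4 without SRC3 replicate 3. Both falls in SRC3 were called (edgeR adjusted p = 1.1e-11 against PAR and 2.1e-08 against FRC1).

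Slc7a6, known as y+LAT2, exports arginine in exchange for neutral amino acids and sodium. It went the other way in FRC1, from 101.7 ± 1.06 CPM in PAR to 116.7 ± 9.25 (log2 0.20, SE 0.06; edgeR adjusted p = 0.014), and was at 97.9 ± 3.56 in SRC3, 1.19-fold lower than FRC1 (log2 -0.25, SE 0.06; edgeR adjusted p = 0.0019). The first of these calls was lost without PAR replicate 1 (edgeR adjusted p = 0.066), FRC1 replicate 2 (0.093) or FRC1 replicate 3 (0.079). The opposite-strand gene Slc7a6os, whose exons do not overlap those of Slc7a6 in the annotation, was at 42.2 ± 3.31, 46 ± 2.33 and 46.8 ± 0.811 CPM and was called in no comparison, with 1 exception among the alternatives, SRC3 against PAR without PAR replicate 3 (edgeR adjusted p = 0.028). Slc7a7, the near relative of Slc7a6 in kidney and macrophages, had 38 reads in all.

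The cationic amino acid transporters of the Slc7 family take up arginine, lysine and ornithine without a heavy chain. Of 4 tested genes of this class, 1 was lower in FRC1 than in PAR, 1 was higher in SRC3 than in PAR and 2 were higher in SRC3 than in FRC1. The shares called were 25, 25 and 50%, the first pair below the 28.3 and 37.9% of all genes and the last above their 33.5%. Slc7a1, the widespread carrier CAT1 (ENSMUSG00000041313, chromosome 5, 148327410 to 148399904), was at 206.5 ± 1.82 CPM in PAR, 194.9 ± 2.54 in FRC1 and 282.3 ± 5.93 in SRC3. It rose 1.37-fold in SRC3 over PAR (log2 0.45, SE 0.04; edgeR adjusted p = 8.1e-08) and 1.45-fold over FRC1 (log2 0.54, SE 0.04; edgeR adjusted p = 8.5e-09). Slc7a3, the carrier CAT3 (chromosome X, 101079210 to 101086020), had a per-length level above that of Slc7a1, 29.3 against 19.8 CPM per kilobase over all libraries. It was 1.2-fold lower in FRC1 (95.6 ± 4.81 CPM) than in PAR (114.2 ± 2.64; log2 -0.26, SE 0.05; edgeR adjusted p = 0.0013) and at 122.8 ± 4.48 in SRC3, 1.29-fold above FRC1 (edgeR adjusted p = 2.3e-05). Slc7a2 (CAT2) was at 4.28 ± 0.746, 3.7 ± 0.421 and 3.67 ± 0.977 CPM and Slc7a4, for which transport is not established, at 0.557 ± 0.0576, 0.601 ± 0.0978 and 0.831 ± 0.0853. Neither passed in any comparison, and 13.3% of the exons of Slc7a4 overlap P2rx6 on the other strand, so its few reads cannot be told apart from that gene's without the strand setting. Summed per length, the class stood at 48.7 ± 0.837 CPM per kilobase in PAR, 42.7 ± 1.45 in FRC1 and 57.5 ± 0.955 in SRC3, with no overlap between populations.

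In the Slc1 family, glutamine and alanine exchangers were well expressed and glutamate carriers hardly at all. Slc1a5, the glutamine exchanger ASCT2 (ENSMUSG00000001918, chromosome 7, 16781340 to 16798274), was at 284.2, 278.1 and 254.6 CPM in PAR, 279.5, 274.4 and 275.9 in FRC1, with 278.5, 296 and 261.8 in SRC3. The 3 populations overlapped, and no comparison was called (log2 0.02, 0.03 and 0.01, each with SE 0.05; edgeR adjusted p = 0.78, 0.64 and 0.89). Slc1a4, the alanine and serine carrier ASCT1 (chromosome 11, 20302180 to 20332713), whose start holds a TGATGNAA match, was at 85.7 ± 2.64, 77.2 ± 5.32 and 96.9 ± 9.26 CPM. It was 1.25-fold higher in SRC3 than in FRC1 (log2 0.33, SE 0.07; edgeR adjusted p = 0.00073).

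The difference of Slc1a4 between SRC3 and PAR was at the threshold (log2 0.18, SE 0.07; edgeR adjusted p = 0.042). It was lost without PAR replicate 1 (edgeR adjusted p = 0.056), PAR replicate 2 (0.094), PAR replicate 3 (0.12) or SRC3 replicate 2 (0.21), with DESeq2 (0.058) and with voom (0.054). That of FRC1 against PAR was not called (log2 -0.15; edgeR adjusted p = 0.1), though it was without SRC3 replicate 2 (0.043) and in a fit of the 2 groups alone (0.047).

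Slc1a6, the glutamate carrier EAAT4 best known from Purkinje cells of the cerebellum (ENSMUSG00000005357, chromosome 10, 78780496 to 78814765), was low in PAR and absent from the SRC3 reads. It was at 1.96, 2.07 and 1.42 CPM in PAR, 0.834, 0.28 and 0.285 in FRC1 and 0 in each SRC3 library. The populations were separate, with FRC1 replicate 1 above the other FRC1 libraries. FRC1 was 3.9-fold lower than PAR (log2 -1.96, SE 0.4; edgeR adjusted p = 0.0013). With 75 reads in PAR, 19 in FRC1 and 0 in SRC3, and a floor of 3 reads over the group, SRC3 was at least 24-fold lower than PAR and at least 6.06-fold lower than FRC1. These bounds became 15.8-fold against PAR without SRC3 replicate 1, and against FRC1 3.74-fold without FRC1 replicate 1 and 3.98-fold without SRC3 replicate 1. Of the other glutamate carriers Slc1a1 had 0 reads, Slc1a2 had 1, Slc1a3 had 28 and Slc1a7 had 18.

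The Slc38 family includes System A, which takes up alanine, serine and glutamine with sodium. Of its 6 tested genes, 1 was higher and 2 lower in FRC1 than in PAR, 4 higher and 0 lower in SRC3 than in PAR, and 4 higher and 0 lower in SRC3 than in FRC1 (50, 66.7 and 66.7% called, beside 28.3, 37.9 and 33.5% of all genes). Slc38a2, the System A carrier SNAT2 that is known to be induced when amino acids run short (ENSMUSG00000022462, chromosome 15, 96687392 to 96699730), was at 426.4, 417.1 and 411.9 CPM in PAR, 376.3, 393.8 and 375.5 in FRC1, with 466, 453.9 and 511.6 in SRC3. The 3 populations did not overlap. SRC3 was 1.25-fold above FRC1 (log2 0.32, SE 0.05; edgeR adjusted p = 2.9e-05) and 1.14-fold above PAR (log2 0.19, SE 0.05; edgeR adjusted p = 0.004). The fall in FRC1 against PAR was at the threshold (log2 -0.13, SE 0.05; edgeR adjusted p = 0.048). It was lost without PAR replicate 1 (edgeR adjusted p = 0.15), PAR replicate 2 (0.096), PAR replicate 3 (0.079), FRC1 replicate 1 (0.11), FRC1 replicate 3 (0.15) or SRC3 replicate 1 (0.054), with library sizes alone (0.069) and with DESeq2 (0.051).

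Slc38a1, the second System A gene (SNAT1, chromosome 15, 96571418 to 96642913), lies 44.5 kb from Slc38a2 on the same strand with no protein-coding gene between them. It showed the same order of populations, 204.2 ± 8.62 CPM in FRC1, 236.5 ± 6.31 in PAR and 300.4 ± 12.7 in SRC3. FRC1 was 1.16-fold lower than PAR (log2 -0.21, SE 0.05; edgeR adjusted p = 0.003) and SRC3 1.27-fold higher (log2 0.34, SE 0.05; edgeR adjusted p = 1.1e-05), calls kept under all 17 alternatives. Slc38a4, the third System A gene, which lies 295.1 kb further along, had 1 read in all. Summed per length, System A stood at 61.1 ± 0.858 CPM per kilobase in PAR, 55 ± 1.61 in FRC1 and 71.4 ± 4.17 in SRC3. The populations did not overlap in this sum either, the lowest SRC3 library being at 68.3 and the highest PAR library at 62.1. Summed fibroblast markers were at 6.63 to 7.21 CPM in FRC1, 8.61 to 9.03 in PAR and 10.9 to 12.7 in SRC3. This sum had the same order of populations as System A, Slc7a11 and the cationic class, but its tested members did not. In PAR, FRC1 and SRC3, Twist2 was at 0.87, 2.23 and 5.64 CPM and Ly6a at 2.87, 1.61 and 1.57. Pdgfra was at 4.55, 3.02 and 4.34 CPM. The part of these markers in the transporter values was not tested.

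The remaining Slc38 genes encode carriers of internal membranes or of less settled function. Slc38a10 was higher than PAR in both reserve populations, at 181.8 ± 5.22 CPM in PAR, 227.4 ± 3.95 in FRC1 (log2 0.32, SE 0.05; edgeR adjusted p = 5.4e-05) and 213.2 ± 9.72 in SRC3 (log2 0.23, SE 0.05; edgeR adjusted p = 0.00077). Slc38a9, the lysosomal carrier that reports arginine to mTORC1, was at 6.61 ± 0.515, 6.2 ± 0.265 and 7.19 ± 0.177 CPM and passed in no comparison. Slc38a7, a lysosomal glutamine carrier, was called 1.15-fold higher in SRC3 (39.7 ± 0.973 CPM) than in FRC1 (34.6 ± 1.51; edgeR adjusted p = 0.025). That call was lost without FRC1 replicate 1 (edgeR adjusted p = 0.087) or SRC3 replicate 1 (0.074), with DESeq2 (0.059) and with no filter (0.055). Slc38a6 was called higher in SRC3 (23.5 ± 4.66 CPM) than in PAR (18.2 ± 1.79; edgeR adjusted p = 0.019) and FRC1 (17.8 ± 0.71; edgeR adjusted p = 0.014). Both of its calls were lost without SRC3 replicate 3 (edgeR adjusted p = 0.12 and 0.094), and the first also without PAR replicate 1 (0.081) or PAR replicate 2 (0.072).

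**Figure D3:**
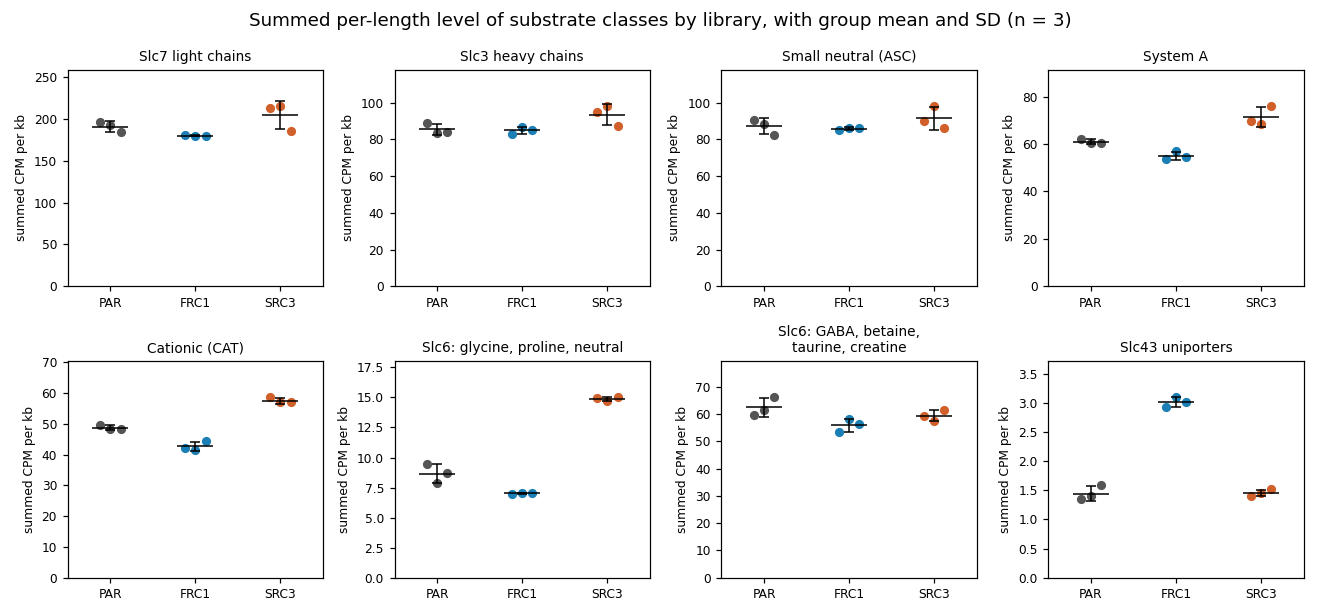
Summed per-length level (CPM per kilobase, vertical axis from 0) of substrate classes in the 3 populations, with libraries as points and the mean and SD (n = 3). The cationic and System A classes lie lowest in FRC1 and highest in SRC3, and the glycine, proline and neutral Slc6 class in SRC3 (14.87 ± 0.188) stands well above PAR (8.66 ± 0.776) and FRC1 (7.02 ± 0.055).

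The Slc6 carriers of glycine, proline and branched neutral amino acids rose together in SRC3, with 3 of 3 tested genes called higher than in PAR and than in FRC1, beside 17.8 and 15.5% of all genes. Against PAR, 1 was higher and 1 lower in FRC1 (66.7% called, beside 28.3% of all genes). Slc6a17, which carries neutral amino acids into synaptic vesicles in neurons (NTT4; ENSMUSG00000027894, chromosome 3, 107467543 to 107518018), was at 3.64, 2.99 and 3.55 CPM in PAR, 6.82, 8.4 and 7.91 in FRC1, with 19.07, 17.51 and 19.46 in SRC3. The populations were fully separate, and among the 30 tested members it alone was called higher in FRC1 than PAR and higher again in SRC3 than FRC1. FRC1 was 2.27-fold above PAR (log2 1.18, SE 0.15; edgeR adjusted p = 7.4e-06), and SRC3 5.48-fold above PAR (log2 2.45, SE 0.13; edgeR adjusted p = 9.1e-12) and 2.42-fold above FRC1 (log2 1.27, SE 0.11; edgeR adjusted p = 3.1e-08). Cspg4, the only tested gene of the pericyte list, had the same order, at 0.695 ± 0.325, 7.82 ± 2.91 and 52.3 ± 9.01 CPM. So did the summed glial markers (1.07 to 1.63, 1.67 to 2.35 and 2.71 to 3.65 CPM). The part of either in the values of Slc6a17 was not tested.

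Slc6a15, a sodium-driven carrier of leucine, proline and other neutral amino acids best known in brain (B0AT2; ENSMUSG00000019894, chromosome 10, 103367783 to 103419377), is the nearest relative of Slc6a17 in this class. It was at 7.42, 8.42 and 7.18 CPM in PAR, 7.28, 6.23 and 5.35 in FRC1, with 17.6, 17.74 and 15.58 in SRC3. PAR and FRC1 overlapped through FRC1 replicate 1, and SRC3 stood above both. SRC3 rose 2.21-fold over PAR (log2 1.15, SE 0.12; edgeR adjusted p = 2.7e-07) and 2.71-fold over FRC1 (log2 1.44, SE 0.13; edgeR adjusted p = 2.1e-08). FRC1 against PAR was not called (log2 -0.29, SE 0.14; edgeR adjusted p = 0.13), and without FRC1 replicate 1 it reached 0.05.

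Slc6a9, the glycine carrier GlyT1 (chromosome 4, 117834506 to 117875198), was at 37.7 ± 4.08 CPM in PAR, 28 ± 0.616 in FRC1 and 55.8 ± 1.14 in SRC3. It was 1.34-fold lower in FRC1 than in PAR (log2 -0.43, SE 0.08; edgeR adjusted p = 0.00037), and in SRC3 1.48-fold higher than in PAR (log2 0.57, SE 0.07; edgeR adjusted p = 3.3e-06) and 1.99-fold higher than in FRC1 (log2 0.99, SE 0.07; edgeR adjusted p = 2.3e-09). Of its exons 27.8% overlap Ccdc24 on the other strand, which had 75 reads in all 9 libraries. The carriers of the gut and kidney in this class, Slc6a14, Slc6a18, Slc6a19 and Slc6a20b, and the glycine carrier Slc6a5 had 0 reads, and Slc6a7 and Slc6a20a had 2 each.

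Another branch of the Slc6 family carries taurine, creatine, betaine and GABA, and its muscle members Slc6a6 and Slc6a8 had the highest per-length levels of the family. Slc6a6, the taurine carrier TauT (ENSMUSG00000030096, chromosome 6, 91684053 to 91759066), was at 339.3, 337.4 and 367 CPM in PAR, 291.4, 305.3 and 301.5 in FRC1, with 301.6, 297 and 317.1 in SRC3. Every FRC1 and SRC3 library was below every PAR library, and FRC1 and SRC3 overlapped. It fell 1.16-fold in FRC1 (log2 -0.22, SE 0.05; edgeR adjusted p = 0.0019) and 1.14-fold in SRC3 (log2 -0.19, SE 0.05; edgeR adjusted p = 0.0036), and the reserve populations were not called against each other (log2 0.03; edgeR adjusted p = 0.7). Slc6a8, the creatine carrier, was at 109.3 ± 8.2, 105.5 ± 8.22 and 119.8 ± 4.45 CPM and was called only in SRC3 against FRC1 (log2 0.18, SE 0.06; edgeR adjusted p = 0.032). That call was lost without SRC3 replicate 1 (edgeR adjusted p = 0.081) or 3 (0.083), or without FRC1 replicate 1 (0.15) or 3 (0.066). Slc6a13 was at 0.673 ± 0.163, 0.436 ± 0.136 and 0.676 ± 0.322 CPM and passed in no comparison. The GABA and betaine carriers Slc6a11 and Slc6a12 and the noradrenaline and dopamine carriers Slc6a2 and Slc6a3 had 0 reads, and the serotonin carrier Slc6a4 had 2.

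The proton-coupled Slc36 carriers move amino acids out of lysosomes and across the gut wall. Slc36a1 (PAT1; ENSMUSG00000020261, chromosome 11, 55204350 to 55236330), whose promoter window holds CACGTG at 31 and at 3 bases before the start, was at 15.82, 20.22 and 19.4 CPM in PAR, 19.25, 22.18 and 21.1 in FRC1, with 19.58, 16.89 and 22.5 in SRC3. The populations overlapped in every comparison, and none was called (log2 0.18, 0.09 and -0.09; edgeR adjusted p = 0.25, 0.55 and 0.6). Slc36a4, a carrier of proline and tryptophan, was 1.47-fold lower in FRC1 (15.2 ± 0.795 CPM) than in PAR (22.3 ± 0.488; log2 -0.55, SE 0.09; edgeR adjusted p = 0.00016). In SRC3 it was at 21.6 ± 2.04 CPM, 1.42-fold above FRC1 (edgeR adjusted p = 0.00024) and not called against PAR (edgeR adjusted p = 0.69). Slc36a2 had 5 reads in all and Slc36a3 had 0.

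The Slc43 family holds sodium-independent uniporters of branched and aromatic amino acids (Slc43a1 and Slc43a2) and a purine base carrier (Slc43a3). Slc43a1 (LAT3; ENSMUSG00000027075, chromosome 2, 84838850 to 84863594) was at 5.53, 5.97 and 6.82 CPM in PAR, 14.55, 15.61 and 15.61 in FRC1, with 6.53, 7.48 and 7.15 in SRC3. It stood high in FRC1 alone, while PAR and SRC3 overlapped. FRC1 rose 2.5-fold over PAR (log2 1.32, SE 0.12; edgeR adjusted p = 1.8e-07), and SRC3 was 2.17-fold lower than FRC1 (log2 -1.11, SE 0.12; edgeR adjusted p = 2.7e-07). SRC3 was not called against PAR (log2 0.21, SE 0.13; edgeR adjusted p = 0.24). The differentiated muscle markers were also highest in FRC1, at 81.3 to 100 CPM summed, and their part in this value was not tested.

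Slc43a3, the purine base carrier ENBT1 (ENSMUSG00000027074, chromosome 2, 84936579 to 84958509), lies 73 kb from Slc43a1 on the same strand, with 1 protein-coding gene between them, and moved differently. It was at 7.63, 5.9 and 7.04 CPM in PAR, 2.5, 2.59 and 1.28 in FRC1, with 0, 0 and 0.152 in SRC3. The populations were separate, and all SRC3 libraries were under the floor of 3 reads. FRC1 was 3.23-fold lower than PAR (log2 -1.69, SE 0.23; edgeR adjusted p = 2.3e-05). With 285 reads in PAR, 88 in FRC1 and 2 in SRC3, the PAR to SRC3 ratio was 137 (95% counting interval 37.5 to 1140) and the FRC1 to SRC3 ratio 42.1 (11.3 to 353). Both reads came from SRC3 replicate 3, and without that library SRC3 was at least 61-fold lower than PAR and at least 18.8-fold lower than FRC1. Without SRC3 replicate 1 the ratios were 89.9 and 27.7.

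Slc43a2 (LAT4) was lower in SRC3, at 2.21 ± 0.709 CPM, than in PAR at 3.76 ± 0.208 (log2 -0.77, SE 0.23; edgeR adjusted p = 0.011). FRC1 was at 3.43 ± 0.504 CPM, from which SRC3 also differed (log2 -0.63, SE 0.23; edgeR adjusted p = 0.041). SRC3 replicate 2, at 1.39 CPM, was the lowest library, and without it neither difference was called (edgeR adjusted p = 0.067 and 0.2). The second call was also lost without any of the PAR libraries (edgeR adjusted p = 0.057, 0.053 and 0.054), FRC1 replicate 1 (0.11) or FRC1 replicate 2 (0.11), with DESeq2 (0.09) and in a fit of the 2 groups alone (0.075).

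**Figure D4:**
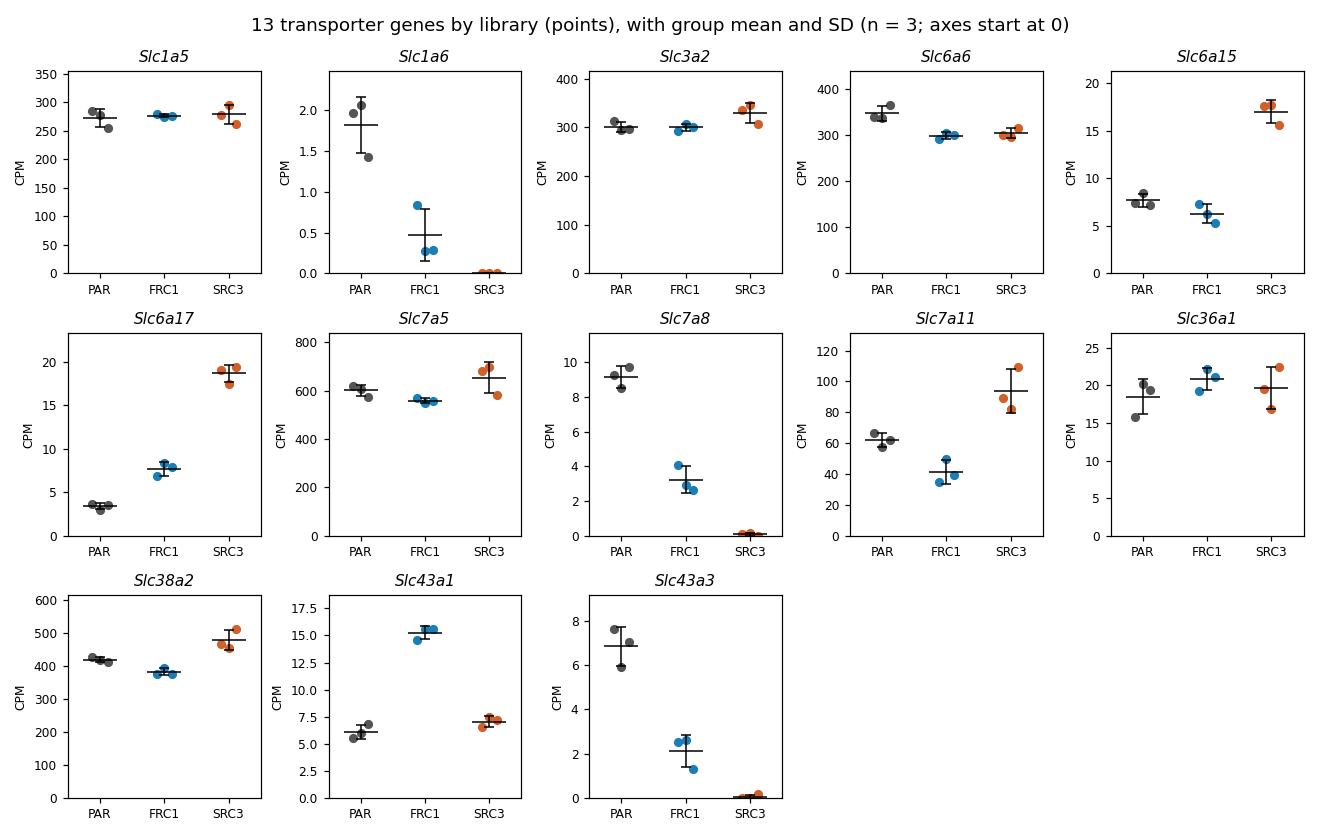
CPM (vertical axes from 0) of 13 members in each library (points) with group mean and SD (n = 3), for the members that changed at least 2-fold, the top member of each family by level, and Slc3a2, Slc7a5 and Slc7a11. Slc7a8, Slc43a3 and Slc1a6 step down from PAR through FRC1 to 3, 2 and 0 reads in SRC3, Slc6a17 steps up, and Slc43a1 is high in FRC1 alone.

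Slc1a6, Slc7a8 and Slc43a3 thus had the same order of populations, PAR above FRC1 above SRC3, at low levels throughout, each below 10 CPM. All 3 reached the filter's cutoff in every PAR library and in no SRC3 library, so their passing rested on the populations where they were higher. Slc6a17 had the opposite order. The summed myoblast markers were also lowest in SRC3, at 1720 to 1860 CPM, but the list was mixed. Of 6 tested, 4 were called lower and 1 higher in SRC3 than in PAR (83.3% called, beside 37.9% of all genes). The higher one was Ncam1 (log2 0.21; edgeR adjusted p = 0.0035), and Itga7 was not called. In FRC1 against PAR, 2 were lower and 1 higher (50%, beside 28.3%). Their part in the falls of Slc1a6, Slc7a8 and Slc43a3 was not tested.

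Genes that sense amino acids for mTORC1 were taken from a list chosen for its pathway. Of 30 tested genes, 2 were higher and 8 lower in FRC1 than in PAR (33.3% called). Over all genes 28.3% were called, 13.6% higher and 14.7% lower. In SRC3 against PAR, 0 were higher and 7 lower (23.3% called). Over all genes 37.9% were called, 17.8% higher and 20.2% lower. Sesn3, a sestrin, of a family that restrains mTORC1, was at 42 ± 3.34 CPM in PAR, 23.2 ± 4.09 in FRC1 (log2 -0.86, SE 0.1; edgeR adjusted p = 3.7e-06) and 17.1 ± 0.134 in SRC3 (log2 -1.3, SE 0.1; edgeR adjusted p = 5.7e-09). Rragd, a Rag GTPase that brings mTORC1 to the lysosome, was at 52.9 ± 3.91, 30.5 ± 2.27 and 42.4 ± 0.499 CPM, lower than PAR in FRC1 (log2 -0.8; edgeR adjusted p = 2.1e-07) and in SRC3 (log2 -0.32; edgeR adjusted p = 0.0011). Gatsl2 and Gatsl3, the symbols in the count tables for the genes of the CASTOR arginine-sensing proteins, were lower in SRC3 than in FRC1. Gatsl2 was at 40.9 ± 0.851, 39.5 ± 7.35 and 21.7 ± 1.19 CPM (SRC3 against FRC1 log2 -0.86; edgeR adjusted p = 6.8e-06), and Gatsl3 at 5.21 ± 0.571, 6.94 ± 0.885 and 3.95 ± 0.314 CPM (log2 -0.81; edgeR adjusted p = 0.00049). Between SRC3 and FRC1, 8 genes of this list were higher and 6 lower (46.7%, beside 33.5%).

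Genes of the response to amino acid shortage through GCN2 and ATF4, the pathway known to act on Slc7a11, Slc3a2, Slc7a5 and Slc38a2, differed in both directions. Of 19 tested genes, 3 were higher and 5 lower in FRC1 than in PAR (42.1%), 6 higher and 3 lower in SRC3 than in PAR (47.4%), and 8 higher and 3 lower in SRC3 than in FRC1 (57.9%). Over all genes these shares were 28.3, 37.9 and 33.5%. Trib3, an ATF4 target that feeds back on Akt and ATF4, was at 66.6 ± 6.73, 60 ± 2.21 and 131.1 ± 18.7 CPM, higher in SRC3 than in PAR (log2 0.98, SE 0.1; edgeR adjusted p = 8.4e-06) and than in FRC1 (log2 1.13, SE 0.1; edgeR adjusted p = 3e-06). Stc2, a secreted glycoprotein, was at 19.1 ± 1.8, 16.3 ± 1.26 and 41.8 ± 2.88 CPM, higher in SRC3 than in PAR (log2 1.13; edgeR adjusted p = 2.7e-09). Vldlr, a lipoprotein receptor, was lowest in FRC1 and highest in SRC3, at 29.1 ± 0.465, 13.4 ± 0.235 and 60.5 ± 3.86 CPM (SRC3 against FRC1 log2 2.18, SE 0.08; edgeR adjusted p = 9e-15). Gdf15, a secreted stress signal of the same list, moved the other way, at 10.5 ± 0.496, 9.2 ± 1.06 and 5.9 ± 1.1 CPM (SRC3 against PAR log2 -0.83; edgeR adjusted p = 1e-04). Atf4 itself, named outside the rule after its values were seen, was at 685.7 ± 24.3, 708.6 ± 16.2 and 768 ± 41.2 CPM, 1.12-fold higher in SRC3 than in PAR (edgeR adjusted p = 0.0097). It was not called in SRC3 against FRC1 (edgeR adjusted p = 0.065) or in FRC1 against PAR (0.49).

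Among enzymes that make or use the carried amino acids, 5 of 26 tested were higher and 9 lower in FRC1 than in PAR (53.8%), 5 higher and 4 lower in SRC3 than in PAR (34.6%), and 8 higher and 3 lower in SRC3 than in FRC1 (42.3%). Over all genes 28.3, 37.9 and 33.5% were called, so that the share of the enzymes in SRC3 against PAR was below that of all genes. Gatm, which makes the creatine precursor, was at 23.1 ± 0.79, 12.9 ± 1.79 and 13.1 ± 1.32 CPM, lower than PAR in FRC1 (log2 -0.85; edgeR adjusted p = 7.4e-06) and SRC3 (log2 -0.81; edgeR adjusted p = 4.1e-06). Ckb, the brain-type creatine kinase, was at 6.35 ± 0.651, 10.1 ± 1.25 and 13.9 ± 2.49 CPM, higher than PAR in both (log2 0.67 and 1.13; edgeR adjusted p = 0.0026 and 3.7e-06). Gls2, the liver-type glutaminase, was at 2.03 ± 0.109, 3.38 ± 0.505 and 2.63 ± 0.586 CPM, higher in FRC1 than in PAR (log2 0.73, SE 0.22; edgeR adjusted p = 0.018). Cth, which makes cysteine from cystathionine, had its means in the order of those of Slc7a11, at 94.4 ± 6.41, 72.1 ± 4.03 and 100.9 ± 4.17 CPM. It was lower in FRC1 than in PAR (log2 -0.39; edgeR adjusted p = 9.9e-05) and higher in SRC3 than in FRC1 (log2 0.49; edgeR adjusted p = 3.4e-06), and SRC3 and PAR were not called apart (edgeR adjusted p = 0.22).

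Of 7 tested amino acid transporters outside the 7 families, 1 was higher and 1 lower in FRC1 than in PAR, 3 higher and 1 lower in SRC3 than in PAR, and 1 higher and 1 lower in SRC3 than in FRC1. The shares called were 28.6, 57.1 and 28.6%, beside 28.3, 37.9 and 33.5% of all genes. Slc16a10, the aromatic amino acid carrier TAT1, was at 3.8 ± 0.931, 3.32 ± 0.292 and 6.98 ± 1.72 CPM, higher in SRC3 than in PAR (log2 0.89, SE 0.2; edgeR adjusted p = 0.0014). Slc15a2, a peptide carrier, was at 2.85 ± 0.623, 3.65 ± 0.475 and 4.88 ± 0.324 CPM, also higher in SRC3 than in PAR (log2 0.78, SE 0.19; edgeR adjusted p = 0.0029). Ctns, which lets cystine out of lysosomes, was at 11.2 ± 1.88, 6.83 ± 1.02 and 7.31 ± 1.32 CPM, lower than PAR in FRC1 (log2 -0.71; edgeR adjusted p = 0.0019) and SRC3 (log2 -0.62; edgeR adjusted p = 0.0037). Mfsd12, needed to take cysteine into lysosomes and melanosomes, was at 7.73 ± 1.42, 9.11 ± 1.06 and 11.2 ± 0.555 CPM, higher in SRC3 than in PAR (log2 0.54; edgeR adjusted p = 0.0042).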

How the data were processed

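Polyadenylated RNA of 9 mouse myoblast samples was read with stranded libraries as single reads of 50 cycles, per the labels. Values in the deposited files are raw counts of reads per gene. Tools listed in the submitters' processing notes are DESeq2, HTSeq 0.9.1 and HISAT2 2.1.0, with the build GRCm38. The strand setting and annotation release were not given in the sources used here, so reads of overlapping genes on opposite strands cannot be told apart. Lines that name no gene stayed out: of uniquely aligned reads, 1.175 to 1.214% matched several genes and 5.923 to 7.917% matched none.

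Groups came from the sample titles. Genes were kept with filterByExpr of edgeR 4.0.16 (R 4.3.3; minimum count 10, minimum total 15), which left 12540. TMM factors were 0.9938 to 1.012. A single model of all 9 libraries with 6 residual degrees of freedom was tested two-sided by quasi-likelihood with robust dispersion (common biological coefficient of variation 0.0535), and p were adjusted by Benjamini-Hochberg over all genes tested. Between replicates the chi-square per degree of freedom of the counts was 1.81 to 7.47, above sampling noise in every pair. Exon lengths and locations are from GENCODE M21 (GRCm38), matched by identifier for all 66 members, and promoters from RefSeq (GRCm38.p6). Ratios with 1 to 3 reads in a group carry exact 95% binomial intervals, and bounds use 3 reads over the group. Since reads carry no molecular identifiers, intervals and floors cover counting error only.

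Members given by library were those called with at least a 2-fold change and 1 CPM in the higher group, the member of each family with the highest per-length level, and Slc3a2, Slc7a5 and Slc7a11. From each pathway list up to 4 genes with the largest called changes were named. The members and lists were chosen with earlier results of these data known. Alternatives were RLE size factors, library sizes alone, no filter, limma 3.58.1 (voom), DESeq2 1.42.0, a filter of 5 CPM in 3 libraries, the replicate number as a block, the 2 compared groups alone, and leaving out each library. The values of 1 member are not reported here.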

Additional observations from a re-analysis of the deposited data

How the results depend on the processing

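Over 17 alternatives, 11 to 16 members were called in FRC1 against PAR, beside 14 with all libraries. In SRC3 against PAR 13 to 16 were, beside 16, and in SRC3 against FRC1 17 to 21, beside 21. Of these calls 11 of 14, 12 of 16 and 16 of 21 were kept under every alternative that tested the gene, and no call changed direction. Leaving out 1 library in turn gave 11 to 15, 13 to 16 and 17 to 20 members. The number of all genes called in FRC1 against PAR ranged from 2327 to 3987 in these fits, the lowest without FRC1 replicate 3, against 3550 with all libraries. The cause was not tested. Differences near 0 that were called in neither fit changed sign. On the log2 scale, leaving out a library gave Slc1a5 values of -0.026 (without PAR replicate 3) to 0.051 in FRC1 against PAR, -0.006 (without PAR replicate 3) to 0.08 in SRC3 against PAR, and -0.024 (without SRC3 replicate 2) to 0.056 in SRC3 against FRC1. It gave Slc3a2 in FRC1 against PAR -0.029 to 0.017 (without PAR replicate 1), and library sizes alone gave 0.002. It gave Slc36a1 -0.013 (without SRC3 replicate 3) to 0.196 in SRC3 against PAR and -0.191 to 0.02 (without SRC3 replicate 2) in SRC3 against FRC1.

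Libraries with the same replicate number did not deviate together (correlations of their deviations from the group means between -0.07 and 0.118), so the numbers do not pair the samples. With the replicate number as a block, 12, 15 and 21 members were called in the 3 comparisons. In that fit Slc7a11 (adjusted p = 0.056) and Slc38a2 (0.058) in FRC1 against PAR and Slc3a2 (0.051) in SRC3 against PAR were not called. Depth limits the low members, as 3 reads in a library corresponded to 0.209 to 0.231 CPM. The untested genes were kept out by the filter on low counts, and changes in them may have been missed. With no filter 42 members were fitted, and those called in FRC1 against PAR were the same 14.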
